A study of Homo sapiens with 24 samples.

Results

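The genes described here are 8 human genes of polyamine metabolism, *ODC1*, *AMD1*, *SRM*, *SMS*, *OAZ1*, *OAZ2*, *AZIN1* and *SAT1*, taken by name from the 54583 genes in the count table. They were measured in PANC1, a human line of pancreatic ductal adenocarcinoma cells, after 6 h in 40 µM CID661578, in 5 µM cercosporamide or in DMSO as the control, with 4 biological replicates of each. The study describes both compounds as acting on MNK2, a kinase that binds the translation initiation complex, and the labels name no engineered allele in the cells. Total cytosolic RNA and RNA associated with more than 3 ribosomes (polysome-associated RNA) were sequenced for each treatment and replicate, which gave 24 libraries. Each of these 12 combinations of treatment and replicate is called a plate here, although how many culture plates it held is not stated. All cells were of 1 line, and the 2 compounds were each given at 1 dose.

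Polyamines (putrescine, spermidine and spermine) are small cations that bind RNA and are required for growth, and their amount is held in a narrow range largely through translation. Ornithine decarboxylase makes putrescine, and the S-adenosylmethionine decarboxylase AMD1 supplies the groups that spermidine synthase and spermine synthase add to it. Antizymes bind ornithine decarboxylase and send it to the proteasome, and full-length antizyme is made only when the ribosome shifts frame at a stop codon, which polyamines promote. Antizyme inhibitor binds antizyme and so protects ornithine decarboxylase, and the acetyltransferase SAT1 marks spermidine and spermine for breakdown or export.

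The frameshift sites of both antizymes are shown because the polysome-associated RNA of *OAZ1* and *OAZ2* fell relative to total RNA with cercosporamide. As given below, the *OAZ1* result depended on the processing, and neither gene passed the test with CID661578. The 30 bases were read from GRCh38 at the base that the GENCODE annotation skips, and capitals mark the last codon of the first frame and the stop codon after it.
OAZ1, chr19:2271429-2271458, plus strand: ctcggtggtgcTCCTGAtgcccctcaccca
OAZ2, chr15:64691500-64691529, minus strand: ctctgtggtgcTCCTGAtgcccctcaccca
The sites were identical at 29 of 30 bases, and the difference is G4T, with the base of *OAZ1* first and positions counted from the 5′ end of the bases shown. Polysome-associated RNA counts whole mRNAs and does not tell whether ribosomes on them had passed this site.

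Short upstream open reading frames (uORFs) are the other sequence feature of these mRNAs. A uORF was taken as an ATG in the annotated 5′ untranslated region (UTR) followed in frame by TAA, TAG or TGA before the start codon of the protein, and capitals mark these start and stop codons.
AMD1 uORF, bases 12 to 32 of the transcript: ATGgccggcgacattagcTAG
SAT1 uORF, bases 63 to 77 of the transcript: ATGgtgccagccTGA
The *AMD1* frame has 6 codons before its stop and ends 289 nt before the main start codon, and the *SAT1* frame has 4 codons and ends 102 nt before it. The 5′ UTR of *ODC1* (334 nt) held 1 such frame of 10 codons, that of *OAZ2* (233 nt) held 2 that share a stop, and that of *AZIN1* (590 nt) held 3 of 17, 16 and 9 codons. None lay within the 5′ UTR of *SRM* (75 nt), *SMS* (116 nt) or *OAZ1* (79 nt), although a frame that starts in the UTR and overlaps the coding sequence was found in *SMS* and in *SAT1*. Thus 5 of the 8 mRNAs held at least 1 uORF. The genes were chosen as polyamine genes with uORF or frameshift control, so this count follows in part from that choice and tests nothing. Over the 10059 tested genes with an annotated 5′ UTR, 31.9% held a uORF, and the median length of the 5′ UTR was 130 nt. Which of these frames ribosomes used was not measured.

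In GRCh38 with GENCODE 44, *ODC1* lies at chr2:10439968-10448327 on the minus strand, *AMD1* at chr6:110874770-110898879 on the plus strand, *SRM* at chr1:11054584-11060020 on the minus strand and *SMS* at chrX:21940709-21994837 on the plus strand. *OAZ1* lies at chr19:2269509-2273490 on the plus strand, *OAZ2* at chr15:64687573-64703281 on the minus strand, *AZIN1* at chr8:102826111-102893864 on the minus strand and *SAT1* at chrX:23783173-23786210 on the plus strand. Reads were counted over the exons of each gene. Transcript GC content ranged from 37.9% in *AMD1* and 38.0% in *AZIN1* to 63.7% in *SRM*, against a median of 47.5% over tested genes.

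The cercosporamide polysome library of replicate 4 held 1592459 reads on genes and the others between 9268041 and 12184749, so its values are the least precise (18 counts for *SRM* and 61 for *SAT1*). Of the duct and carcinoma markers, the keratins *KRT8*, *KRT18* and *KRT19* and the filament gene *VIM* were high (median *KRT8* level 6382 CPM, read counts scaled to the normalized size of the library). The others were low, with median levels of 16.8 CPM for *SOX9*, 13.7 CPM for *KRT7* and 6.88 CPM for *EPCAM*, and the cadherin *CDH1* did not exceed 0.787 CPM. *INS*, *PRSS1*, *PTPRC* and *CD3E* had no count in any library, and *CD68* was at 307 to 858 CPM. Counts on the pseudogene copies of these genes and on the divergent transcript *ODC1-DT* reached at most 22 (*AMD1P3*) in a library. The relation of polysome to total RNA with transcript GC content differed between plates. From low (38.4%) to high (60.8%) GC, the polysome-to-total log2 ratio changed by 0.19, 0.98, 0.54 and 0.34 in the DMSO plates of replicates 1 to 4, by 0.52, 0.10, -0.30 and -0.99 with CID661578 and by -0.57, -0.71, 0.25 and -0.81 with cercosporamide. The study reported low GC content in the 5′ UTRs of mRNAs translated more with the compounds, and high GC content in those translated less. Removal of GC trends, used below as an alternative, was based on the GC content of whole transcripts and not of 5′ UTRs. It can also remove a change made by a compound where that change follows transcript GC content. What the trends reflect was not tested.

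With DMSO alone, 5 of the 8 mRNAs were less abundant in polysome-associated than in total RNA, relative to the other genes. These were *SAT1* (log2 difference of -1.19 ± 0.18, SE), *OAZ1* (-1.10 ± 0.17), *SMS* (-0.79 ± 0.17), *AMD1* (-0.74 ± 0.18) and *OAZ2* (-0.52 ± 0.17), and their adjusted p ranged from 1.20e-06 for *SAT1* to 0.00984 for *OAZ2*, whose call was lost without replicate 4 (adjusted p = 0.201). *ODC1* was the 1 gene called higher (0.35 ± 0.18, adjusted p = 0.110), and it lost this call without replicate 1 (adjusted p = 0.215) or replicate 2 (0.378) and without the replicate block (0.395). *SRM* (-0.40 ± 0.27, adjusted p = 0.227) and *AZIN1* (-0.28 ± 0.17, adjusted p = 0.181) did not pass, although *SRM* met the thresholds without replicate 2 (-0.90, adjusted p = 0.000574) and after removal of GC trends (-0.71, adjusted p = 0.0177). A gene is called here and throughout at an adjusted p below 0.15 over all 12058 genes tested and a difference above 1.2-fold, with edgeR's quasi-likelihood test and Benjamini-Hochberg adjustment. The study used both limits for changes in translation efficiency, and it set no such fold limit for polysome-associated or total RNA alone. In all, 6 of the 8 were called in this comparison, as were 58.3% of all tested genes (27.7% higher and 30.6% lower).

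Per kilobase of transcript, *OAZ1* stood far above the other 7 genes, with 1055 ± 103 CPM per kb in total RNA with DMSO (SD, n = 4). *OAZ2* (106 ± 27.5), *SAT1* (95.7 ± 19.9) and *SMS* (92.99 ± 30.1) followed and differed from each other by less than their spread. The lowest levels per kilobase were those of *AMD1* (30.9 ± 8.90), *ODC1* (29.1 ± 9.56), *AZIN1* (22.8 ± 3.94) and *SRM* (19.98 ± 11.2), which also overlapped. In polysome-associated RNA with DMSO, the levels per kilobase were 497 ± 88.4 for *OAZ1*, 73.8 ± 20.8 for *OAZ2*, 52.6 ± 10.4 for *SMS*, 41.4 ± 5.39 for *SAT1*, 35.6 ± 3.47 for *ODC1*, 18.8 ± 4.41 for *AZIN1*, 18.1 ± 2.70 for *AMD1* and 13.7 ± 2.91 for *SRM*. In this fraction the intervals of 1 SD of neighbours in the order overlapped from *OAZ2* to *ODC1*, and the intervals of 1 SD of *AZIN1*, *AMD1* and *SRM* overlapped.

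**Figure D1:**
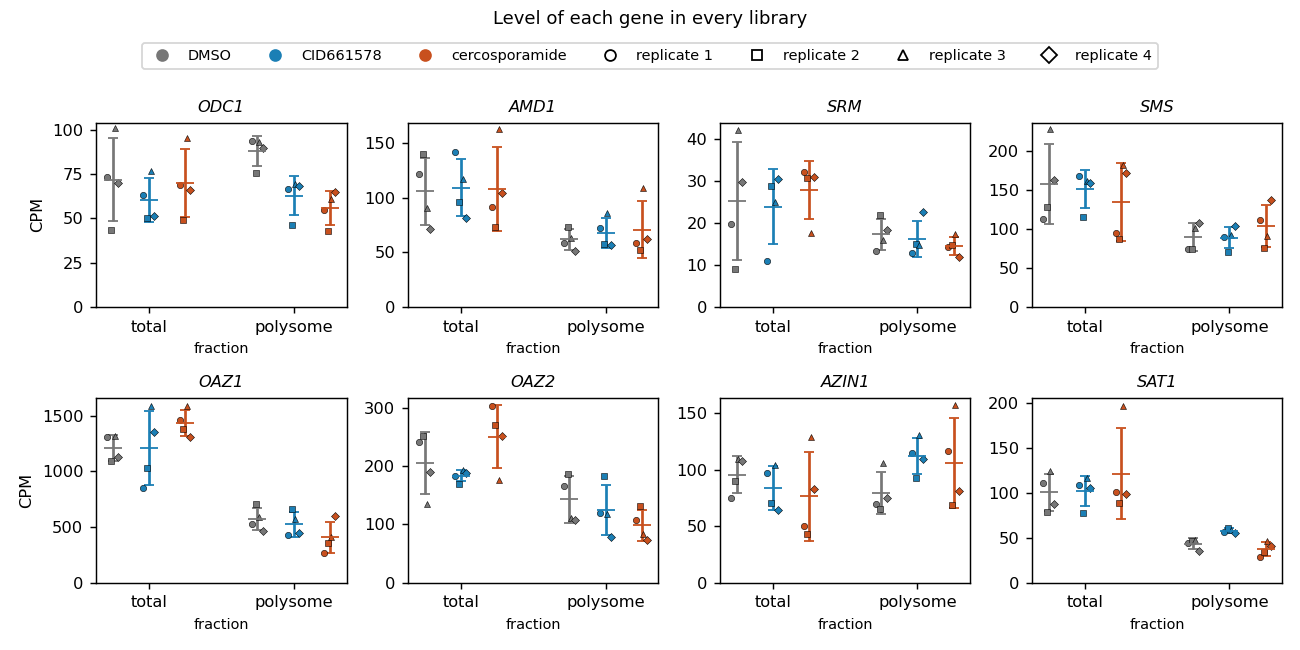
Level of each of the 8 genes in every library, in CPM on a linear axis from 0, for total (left) and polysome-associated RNA (right), with points for replicates, shapes for replicate numbers, a bar at the mean and error bars of 1 SD (n = 4). *ODC1* in polysome-associated RNA was at 75.5 to 93.8 CPM with DMSO and at 43.1 to 69.7 CPM with either compound, and *SAT1* in polysome-associated RNA was highest with CID661578.

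The comparison of fractions asks whether a compound changed how heavily an mRNA was loaded with ribosomes beyond a change in its amount. How far polysome-associated RNA changed beyond total RNA, against DMSO, is the change in translational efficiency (TE), and all values that follow are relative to the other genes of a library. The libraries are bulk samples, so fewer cells and less RNA per cell cannot be told apart. With CID661578, none of the 8 genes was called for TE, against a background of 0.207% of tested genes, and 1 (*AZIN1*) passed an unadjusted p of 0.05. DESeq2 called none either. The study, with the anota2seq method and the same limits for TE, reported more translationally changed mRNAs shared by both compounds than were called here with CID661578. In simulated data the present model called 15.2% of genes changed by 0.7 on the log2 scale, so a gene not called may have changed. With cercosporamide, 4 of the 8 were called, *AZIN1* higher and *ODC1*, *OAZ1* and *OAZ2* lower, where 28.4% of tested genes were called (15.8% higher and 12.6% lower). In total RNA, none of the 8 was called with CID661578 (background 0.448%) or with cercosporamide (background 0.381%), none passed an unadjusted p of 0.05, and DESeq2 called none.

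**Figure D2:**
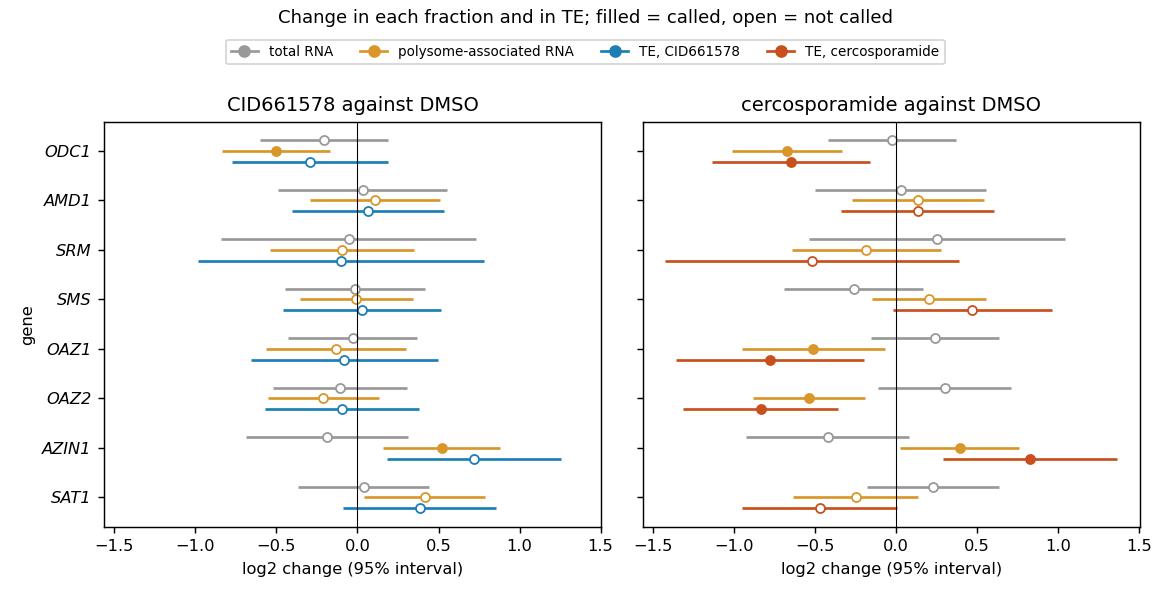
Log2 change of each gene against DMSO in total RNA (grey), in polysome-associated RNA (orange) and in TE (blue or red), with 95% intervals of the edgeR fit, for CID661578 (left) and cercosporamide (right). Filled points were called, and all 16 total RNA points are open, while *ODC1*, *OAZ1*, *OAZ2* and *AZIN1* are filled for TE with cercosporamide.

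*ODC1*, which encodes the enzyme of the first step, had less polysome-associated RNA with either compound. In polysome-associated RNA it was at 93.8, 75.5, 93.4 and 89.7 CPM in replicates 1 to 4 with DMSO. With CID661578 it was at 66.8, 46.3, 69.7 and 68.5 CPM, and with cercosporamide at 54.9, 43.1, 61.1 and 64.9 CPM. All 8 libraries with a compound lay below all 4 with DMSO, a separation that 2.92% of tested genes showed for CID661578 and 5.73% for cercosporamide. The fitted log2 change was -0.50 ± 0.16 with CID661578 (SE, adjusted p = 0.0891) and -0.67 ± 0.16 with cercosporamide (adjusted p = 0.00660), where 10.1% and 32.2% of tested genes were called in this fraction. The call with CID661578 was lost when any 1 replicate was left out (adjusted p from 0.180 to 0.241) and without the replicate block (0.465).

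Total *ODC1* RNA was at 73.6, 43.3, 101 and 69.8 CPM with DMSO, at 63.1, 50.5, 77.0 and 51.7 CPM with CID661578 and at 69.1, 49.0, 95.2 and 66.3 CPM with cercosporamide. The 3 groups overlapped, and replicate 2 had the lowest and replicate 3 the highest value in each. The log2 polysome-to-total ratio of a plate was 0.35, 0.80, -0.12 and 0.36 with DMSO, 0.08, -0.13, -0.14 and 0.41 with CID661578 and -0.33, -0.19, -0.64 and -0.03 with cercosporamide. Every cercosporamide plate lay below the DMSO plate of its replicate, and 3 of 4 CID661578 plates did. The share of all tested genes with such agreement between replicates, here and below, was not counted. TE fell by 0.65 ± 0.24 on the log2 scale with cercosporamide (adjusted p = 0.0618). This call was lost without replicate 1 (adjusted p = 0.168) or replicate 2 (0.270) and with neither plate nor replicate terms (0.349). The value with CID661578 was -0.29 ± 0.23 (adjusted p = 0.718), and the difference between the compounds was 0.36 with a 95% interval from -0.13 to 0.84 (adjusted p = 0.406).

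**Figure D3:**
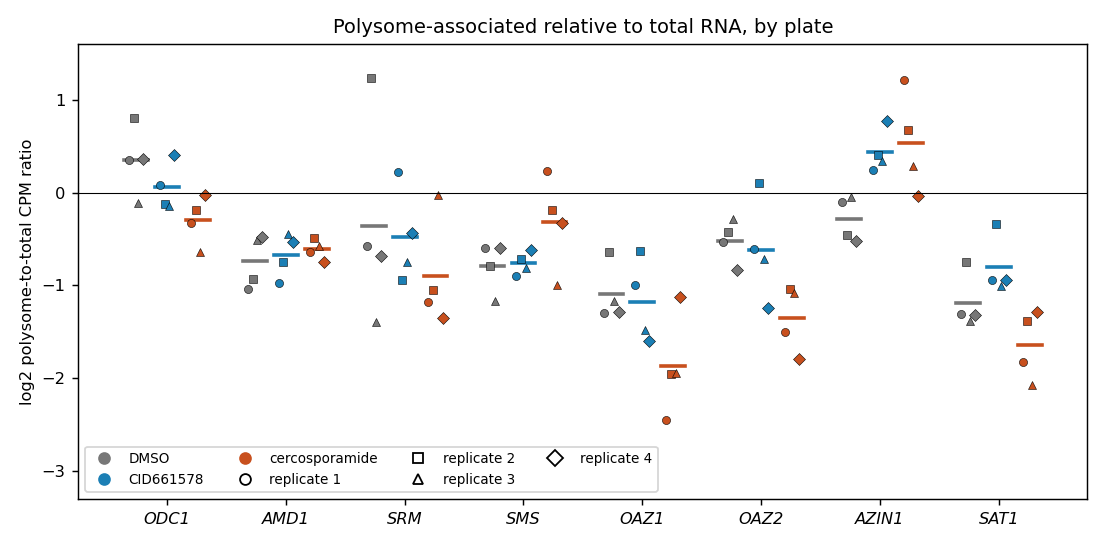
Log2 ratio of polysome-associated to total CPM for each gene on each of the 12 plates, with colours for treatments, shapes for replicate numbers and bars at group means. The *OAZ2* ratios with cercosporamide (-1.79 to -1.04) lay below all DMSO ratios (-0.83 to -0.29), and the *AZIN1* ratios with either compound lay above all DMSO ratios (-0.52 to -0.05).

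Of the other enzymes of synthesis, none was called with either compound in either fraction or for TE. *AMD1*, which encodes the S-adenosylmethionine decarboxylase, was at 71.9 to 163 CPM in total and 51.4 to 109 CPM in polysome-associated RNA. Its TE changes were 0.06 ± 0.23 with CID661578 (95% interval from -0.40 to 0.53) and 0.13 ± 0.23 with cercosporamide (-0.34 to 0.60). After the GC trend of each library was removed, the *AMD1* value with cercosporamide turned to -0.51 (adjusted p = 0.115), which met the thresholds for a lower TE. *SMS*, spermine synthase, had a TE change of 0.03 ± 0.24 with CID661578 and of 0.47 ± 0.24 with cercosporamide (adjusted p = 0.187). Its cercosporamide plates lay above the DMSO plates of the same replicate in 4 of 4 cases, a description without a count over all genes. *SRM*, spermidine synthase, had the widest spread of the 8, with DMSO plate ratios of -0.58, 1.24, -1.40 and -0.68. Its TE changes of -0.10 ± 0.43 and -0.52 ± 0.44 have 95% intervals from -0.98 to 0.78 and from -1.42 to 0.39. Without replicate 3 the value with cercosporamide was -1.23, which met the thresholds (adjusted p = 0.0812), and without replicate 2 it was 0.066.

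*OAZ1* and *OAZ2*, the antizymes, had lower TE with cercosporamide. *OAZ1* in total RNA was at 1307, 1094, 1319 and 1126 CPM with DMSO and at 1459, 1379.7, 1582 and 1307 CPM with cercosporamide. In polysome-associated RNA it was at 531, 702, 588 and 462 CPM with DMSO and at 266, 355, 411 and 599.8 CPM with cercosporamide. The values of replicates 1 to 3 with cercosporamide lie below all DMSO values, whereas that of replicate 4, the shallow library, does not. The plate ratios were -1.30, -0.64, -1.17 and -1.28 with DMSO and -2.45, -1.96, -1.95 and -1.12 with cercosporamide. TE fell by 0.78 ± 0.28 on the log2 scale (adjusted p = 0.0596), and without the cercosporamide plate of replicate 4 it fell by 1.12 ± 0.26 (adjusted p = 0.0101). It no longer passed without replicate 1 (adjusted p = 0.194) or replicate 2 (0.319), with an analysis of partial variance (0.334) and after removal of GC trends (-0.49, adjusted p = 0.211). The call was also lost with neither plate nor replicate terms (adjusted p = 0.229). Polysome-associated *OAZ1* fell by 0.51 ± 0.21 (adjusted p = 0.0964). This call was lost in 7 of 15 alternatives, among them the fits without the replicate block (adjusted p = 0.253), without replicate 1 (0.358), 2 (0.374) or 3 (0.208), with DMSO and cercosporamide alone (0.192) and after removal of GC trends (0.416). With a replicate or the shallow plate left out, its value ranged from -0.90 to -0.35. Total *OAZ1* had a value of 0.24 ± 0.19 (adjusted p = 0.674).

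*OAZ2* gave the most stable of these calls. Total *OAZ2* RNA was at 241, 252, 135 and 191 CPM with DMSO and at 304, 270.3, 176 and 252 CPM with cercosporamide, and each cercosporamide plate exceeded the DMSO plate of its replicate. Polysome-associated *OAZ2* RNA was at 166, 187, 111 and 107 CPM with DMSO and at 107, 132, 82.8 and 72.8 CPM with cercosporamide, each below its DMSO plate. The plate ratios of -0.53, -0.43, -0.29 and -0.83 with DMSO and -1.50, -1.04, -1.09 and -1.79 with cercosporamide did not overlap. Ratios that lie below all DMSO ratios were found for 7.96% of tested genes. TE fell by 0.83 ± 0.23 on the log2 scale (adjusted p = 0.0161), and the call was lost in 1 of 17 alternatives, the fit with neither plate nor replicate terms (adjusted p = 0.229). In polysome-associated RNA, *OAZ2* fell by 0.54 ± 0.17 (adjusted p = 0.0286), a call that was lost without the replicate block (0.273) and after removal of GC trends (0.193).

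With CID661578, the antizymes gave other values. Total *OAZ1* was at 847, 1030.3, 1589.6 and 1356 CPM and polysome-associated *OAZ1* at 424, 665, 569.6 and 446 CPM, with plate ratios of -0.998, -0.63, -1.48 and -1.60. Total *OAZ2* was at 184, 169.7, 193 and 188 CPM and polysome-associated *OAZ2* at 120.2, 182, 118 and 78.9 CPM, with plate ratios of -0.61, 0.10, -0.71 and -1.25. Both sets of ratios overlapped those with DMSO. The TE changes were -0.08 ± 0.28 for *OAZ1* (95% interval from -0.66 to 0.50) and -0.10 ± 0.23 for *OAZ2* (-0.57 to 0.38). In the test of the compounds against each other, the TE change with CID661578 exceeded that with cercosporamide by 0.74 ± 0.23 for *OAZ2* (adjusted p = 0.0570) and by 0.70 ± 0.28 for *OAZ1* (adjusted p = 0.141, and 0.169 without the replicate block). The doses of the compounds differed, so this test compares the 2 treatments as given. With *SAT1*, 3 of the 8 genes were called in this test, all higher with CID661578, where 15.5% of tested genes were called and 7.93% were higher. The *OAZ1* difference was lost in 10 of 17 alternatives and the *OAZ2* difference in 5 of 17, among them the fits without replicate 1 (adjusted p of 0.529 for *OAZ1* and 0.221 for *OAZ2*) and without replicate 2 (0.536 and 0.319).

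*AZIN1*, which encodes the antizyme inhibitor, was the 1 gene of the 8 called higher in polysome-associated RNA, and it was called with both compounds. Polysome-associated *AZIN1* RNA was at 69.8, 65.2, 106 and 75.1 CPM with DMSO, at 114, 92.8, 131 and 109.7 CPM with CID661578 and at 117, 69.2, 157 and 80.8 CPM with cercosporamide. Every treated plate exceeded the DMSO plate of its replicate, although the groups overlapped. Total *AZIN1* RNA was at 74.9, 89.5, 109.8 and 108 CPM with DMSO, at 96.7, 70.2, 104 and 64.4 CPM with CID661578 and at 50.3, 43.2, 129 and 82.6 CPM with cercosporamide, with overlapping groups. The plate ratios were -0.10, -0.46, -0.05 and -0.52 with DMSO, 0.24, 0.40, 0.34 and 0.77 with CID661578 and 1.21, 0.68, 0.29 and -0.03 with cercosporamide. Both sets with a compound lay above all DMSO ratios, as 2.71% of tested genes did with CID661578 and 11% with cercosporamide. With cercosporamide this rests on replicate 4, the shallow library with 122 *AZIN1* counts. Its ratio of -0.033 was close to the highest DMSO ratio of -0.048.

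The TE of *AZIN1* rose by 0.83 ± 0.26 on the log2 scale with cercosporamide (adjusted p = 0.0319). With CID661578 the value was 0.72 ± 0.26, and it did not pass the adjustment over all genes in edgeR (adjusted p = 0.489). The difference between the compounds was -0.11 with a 95% interval from -0.65 to 0.43. In polysome-associated RNA, *AZIN1* rose by 0.52 ± 0.17 with CID661578 (adjusted p = 0.103) and by 0.39 ± 0.18 with cercosporamide (adjusted p = 0.126), and with cercosporamide total RNA had a value of -0.42 ± 0.24 (adjusted p = 0.537). The *AZIN1* transcript, at 38.0% GC, lies at the low end of GC content, and the GC trends of the plates differed between the groups as given above. Removing these trends can also remove a change made by a compound. After their removal, the TE change was 0.20 with cercosporamide (adjusted p = 0.631) and 0.38 with CID661578 (adjusted p = 0.953), and the polysome-associated change with cercosporamide turned to -0.10. The call for TE with cercosporamide was also lost with an analysis of partial variance (0.43, adjusted p = 0.250) and without replicate 1 (adjusted p = 0.154) or replicate 2 (0.191). The fit with neither plate nor replicate terms lost it too (adjusted p = 0.340). The call in polysome-associated RNA with CID661578 was lost when any 1 replicate was left out (adjusted p from 0.187 to 0.292) and without the replicate block (0.541). The same call with cercosporamide was kept in 1 of 15 alternatives, the fit without the shallow plate (adjusted p = 0.110). It was lost without any 1 replicate (adjusted p from 0.152 to 0.419), without the block (0.348), with DESeq2 (0.180), and under each other filter and normalization run.

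*SAT1*, the acetyltransferase of polyamine breakdown, was the gene of the 8 for which the TE changes with the 2 compounds lay furthest apart. Polysome-associated *SAT1* RNA was at 44.6, 46.8, 47.3 and 35.2 CPM with DMSO, at 56.6, 61.4, 58.1 and 54.7 CPM with CID661578 and at 28.2, 33.6, 46.5 and 40.4 CPM with cercosporamide. The CID661578 values lay above all DMSO values, as for 3.83% of tested genes, yet the log2 change of 0.41 ± 0.18 did not pass (adjusted p = 0.209). It met the thresholds in the fit of DMSO and CID661578 alone (0.42, adjusted p = 0.120). Total *SAT1* RNA was at 111, 78.5, 124 and 88.0 CPM with DMSO, at 109, 77.9, 117 and 105 CPM with CID661578 and at 101, 88.1, 197 and 98.6 CPM with cercosporamide, and the groups overlapped.

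The plate ratios of *SAT1* were -1.31, -0.74, -1.39 and -1.32 with DMSO, -0.94, -0.34, -1.003 and -0.94 with CID661578 and -1.83, -1.39, -2.08 and -1.28 with cercosporamide. Each CID661578 plate lay between 0.37 and 0.40 above the DMSO plate of its replicate, and 3 of 4 cercosporamide plates lay between 0.52 and 0.69 below it. The TE changes of 0.38 ± 0.23 with CID661578 (adjusted p = 0.631) and -0.47 ± 0.23 with cercosporamide (adjusted p = 0.172) did not pass against DMSO. The latter met the thresholds in DESeq2 (-0.55, adjusted p = 0.0866), after removal of GC trends (-0.69, adjusted p = 0.0345) and without the shallow plate (-0.62, adjusted p = 0.0944). The difference between the compounds was 0.86 ± 0.23 (adjusted p = 0.0308), higher with CID661578 in 4 of 4 replicates. It was lost in 2 of 17 alternatives, without replicate 2 (adjusted p = 0.204) and with neither plate nor replicate terms (0.322).

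**Figure D4:**
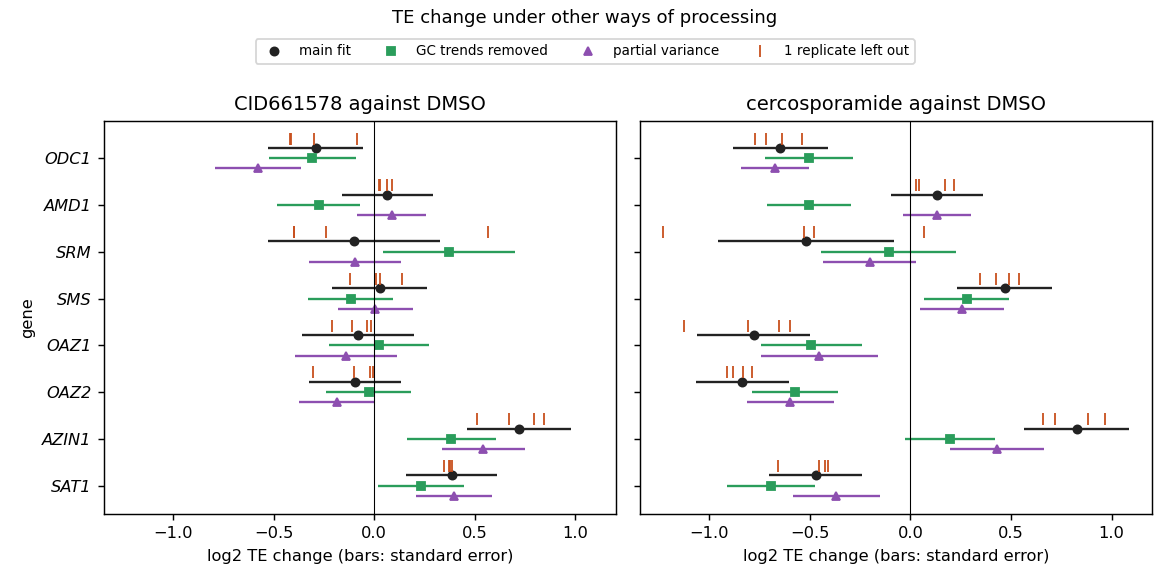
Log2 TE change of each gene with its standard error in the fit as reported (black), after removal of GC trends (green) and in an analysis of partial variance (purple), with ticks for fits that leave out 1 replicate. *OAZ2* with cercosporamide stayed between -0.91 and -0.57 over all alternatives, and *AZIN1* with cercosporamide moved from 0.83 to 0.20 after removal of GC trends.

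The pathway around these genes was described with 32 further genes, of which 25 were tested. With CID661578, none of the 25 was called for TE (2 passed an unadjusted p of 0.05, and DESeq2 called none), and their median change was -0.18, against 0.03 over all tested genes and -0.03 over the 8 genes. With cercosporamide, 3 were called higher and 4 lower, where 15.8% and 12.6% of all tested genes were (28.4% in all), so the count is near the background. Their median was -0.13, against -0.50 over the 8 genes and -0.0005 over all tested genes. In total RNA, none of the 25 was called with either compound, while 1 passed an unadjusted p of 0.05 with CID661578 and 3 did with cercosporamide, and DESeq2 called 1 and 0.

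The genes called lower with cercosporamide came from the lists for catabolism, ornithine and arginine supply, and hypusination. *EIF5A* (-1.06 ± 0.31, adjusted p = 0.0221) encodes the translation factor that receives hypusine, an amino acid made from spermidine, and it was the most abundant gene of the hypusination list (277 ± 128 CPM in total RNA with DMSO). *SAT2* (-1.06 ± 0.29, adjusted p = 0.0132) is related to *SAT1* by sequence. *SLC25A15* (-1.09 ± 0.41, adjusted p = 0.0708) carries ornithine across the mitochondrial membrane, and its call was lost without replicate 1 (adjusted p = 0.267) or replicate 3 (0.182). *AGMAT* (-2.44 ± 0.75, adjusted p = 0.0281), annotated as agmatinase, had between 1 and 28 counts per library, so that its value rests on few reads, and its call was lost without replicate 2 (adjusted p = 0.189). The *EIF5A* call was lost with an analysis of partial variance (adjusted p = 0.219) and, as for *SLC25A15*, *ATP13A3*, *OAT* and *SLC3A2*, with neither plate nor replicate terms.

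Genes called higher with cercosporamide were 2 of the 6 tested transport genes and 1 of the 4 tested genes of ornithine and arginine supply, where 15.8% of all tested genes were called higher. *SLC3A2* (1.16 ± 0.28, adjusted p = 0.00706), the heavy chain of amino acid exchangers, was the most abundant transport gene (1217 ± 739 CPM in total RNA with DMSO). *ATP13A3* (0.74 ± 0.24, adjusted p = 0.0343) encodes a polyamine transporter, and its call was lost after removal of GC trends (0.18, adjusted p = 0.658), without replicate 1 (0.190) and in 4 of 17 alternatives in all. *OAT* (0.71 ± 0.27, adjusted p = 0.0724), ornithine aminotransferase and the most abundant gene of its list (115 ± 33.8 CPM), had a value of 0.28 after the same removal. Its call was lost in 8 of 17 alternatives, among them the removal of GC trends (adjusted p = 0.488) and the fits without replicate 1 (0.200), 2 (0.470) or 4 (0.161). None of the 8 tested genes of the methionine cycle was called, with values for *AHCY*, the most abundant (257 ± 59.7 CPM), of -0.41 ± 0.27 with CID661578 and 0.04 ± 0.26 with cercosporamide. In the test of the compounds against each other, 3 of the 25 genes were called, where 15.5% of all tested genes were. The TE change with CID661578 exceeded that with cercosporamide for *EIF5A* by 1.31 ± 0.31 (adjusted p = 0.0171) and for *SAT2* by 0.88 ± 0.29 (adjusted p = 0.0672), and it was lower for *SLC3A2*, with a difference of -1.202 ± 0.28 (adjusted p = 0.0162).

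**Figure D5:**
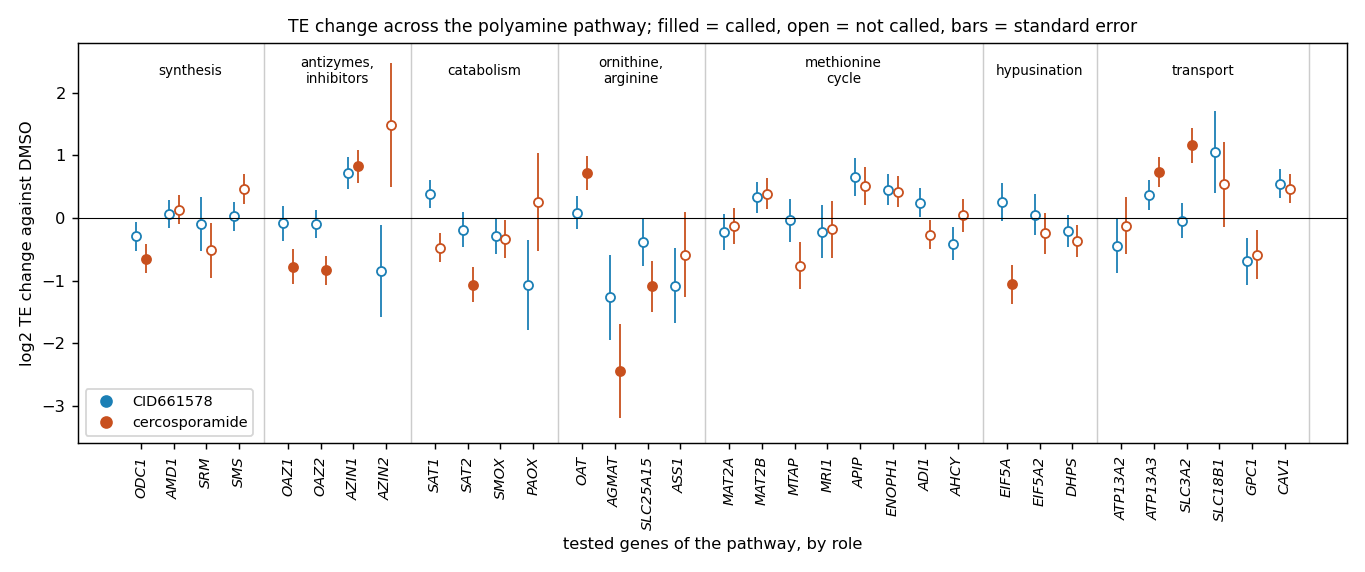
Log2 TE change against DMSO, with standard errors, of the 33 tested genes of the pathway in 7 roles, for CID661578 (blue) and cercosporamide (red), filled where called. No blue point is filled, and the filled red points are 4 of the 8 genes described and 7 of the 25 others.

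The genes whose plate ratios varied most like those of the 8 were sought among the 7895 tested genes that averaged 3 or more on the log2 CPM scale, by Pearson's r over the 12 plates. This is a description, since the plates share treatments and GC trends. The most alike were *TNFRSF11A* for *ODC1* (r = 0.880), *NEMP1* for *AMD1* (0.884), *CMTM7* for *SRM* (0.909), *LOC646347* for *SMS* (0.941), *MRPL43* for *OAZ1* (0.955), *DMKN* for *OAZ2* (0.958), *RSRC1* for *AZIN1* (0.928) and *TMEM107* for *SAT1* (0.958). For comparison, the 99th percentile of these candidates reached r = 0.703 for *ODC1* and 0.871 for *OAZ1*.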

How the data were processed

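The counts deposited by the authors are whole reads for 54583 RefSeq genes in 24 libraries of PANC1 cells, without normalization or filter. Per the labels and the study's methods, libraries were made with Smart-seq2, reads from rRNA were removed with BBDuk, and the rest were aligned to hg38 with HISAT2 and counted with the default settings of featureCounts, which ignore strand and count a read at each place it aligns, so close copies are uncertain. Groups came from the sample labels. Genes at 0 in any library were removed, as in the study, which left 12058, and all 8 genes described were kept.

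TE changes were tested with edgeR 4.0.16 (quasi-likelihood test, R 4.3.3) after TMM normalization over all libraries, with terms for each plate, for replicate within the polysome fraction and for fraction by compound. Fractions, and DMSO polysome against total RNA, were fitted separately with replicate as a block. Errors are standard errors of log2 changes. Plate ratios used log2 CPM with a prior count of 2. The replicate pairs the samples because the study's methods use it as the batch, and deviations of treated and DMSO libraries of the same number correlated with r above 0.1 in 13 of 16 cases (-0.0186 to 0.584). All pairs of libraries differed beyond sampling noise (chi-square per degree of freedom of at least 14.4).

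The depth, between 1592459 and 12184749 reads, limits low genes. Tested on simulated data for the TE change with CID661578 (11515 genes), the model called 15.2% of 92 genes changed by 0.7 on the log2 scale, 72.2% of 90 changed by 1.5 and 23 of 11333 unchanged genes. The simulated counts were drawn from the fitted model, so these rates hold for data that follow it. Differences between plates that the model does not describe were not simulated.

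Named genes were the 8 genes, other pathway genes called for TE or most abundant in their list, and the gene most like each of the 8. The genes and lists were chosen with earlier results of these data known. Alternatives were the fits without the replicate block or without plate and replicate terms, with a single compound beside DMSO, DESeq2 1.42.0, edgeR with DESeq2's size factors, TMM within fractions or without mitochondrial genes, 2 other filters, a threshold of 0.05, a partial variance analysis with limma 3.58.1 in place of anota2seq (not used here), removal of GC trends, and each replicate or the shallow plate left out. Transcript GC content and 5′ UTRs came from the canonical transcripts of GENCODE 44 on GRCh38, and 96% of tested genes had a GC value.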

Additional observations from a re-analysis of the deposited data

Results flagged for a closer look

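Among 72 groups of 4 values for the 8 genes (log2 CPM in each fraction and log2 plate ratios), 6 had a highest or lowest value that stood apart by Dixon's criterion, and chance alone sets apart about 1 in 20 groups. The gap to the nearest value, as a share of the group's range, was 0.896 for polysome-associated *ODC1* with CID661578, where replicate 2 was low at 46.3 CPM. The share was 0.912 for total *SRM* with cercosporamide, where replicate 3 was low at 17.6 CPM, and 0.857 for total *SMS* with CID661578, where replicate 2 was low at 116 CPM. For *SAT1*, it was 0.833 in total RNA with cercosporamide, where replicate 3 was high at 197 CPM. The plate ratios of *SAT1* gave shares of 0.879 with DMSO and 0.903 with CID661578, and replicate 2 was the high plate in both.

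For 3 of the 8 genes the TE change differed between the compounds by a test of the difference itself in edgeR, where 15.5% of tested genes were called and 7.93% were higher with CID661578. None of the 3 was called without replicate 2. The change with CID661578 minus that with cercosporamide was 0.70 for *OAZ1* (adjusted p = 0.141), 0.74 for *OAZ2* (adjusted p = 0.0570) and 0.86 for *SAT1* (adjusted p = 0.0308), and the doses of the compounds differed.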

How the results depend on the processing

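Over 17 alternatives for TE, 15 for each fraction and 13 for DMSO polysome against total RNA, the 19 calls on the 8 genes kept their direction except for polysome-associated *AZIN1* with cercosporamide, which turned to -0.10 after removal of GC trends. With cercosporamide, 4 of the 8 genes were called for TE, and the number was 0 with neither plate nor replicate terms, 2 with an analysis of partial variance, 2 at an adjusted p of 0.05 and between 1 and 5 with a replicate or the shallow plate left out, with 1 without replicate 1 or 2. For the compounds against each other (3 called), these numbers were 0, 1, 1 and between 0 and 3, with 1 without replicate 1 and 0 without replicate 2. In polysome-associated RNA with CID661578 (2 called), the number was 0 without the replicate block, with no filter, after removal of GC trends and at an adjusted p of 0.05, and between 0 and 2 with a replicate or the shallow plate left out, where each replicate left out gave 0. With cercosporamide (4 called in that fraction), it was 1 without the replicate block, 2 with DMSO and 1 compound, 1 after removal of GC trends, 2 at an adjusted p of 0.05 and between 2 and 4 with a replicate left out, with 2 without replicate 1, 2 or 3. The cause was not tested. Without the replicate block, the numbers were 4 for TE with cercosporamide, 2 for the compounds against each other, 5 for DMSO polysome against total RNA (6 called with the block) and 0 for TE with CID661578 and for both total RNA comparisons. Over all genes, TE calls ranged from 9 (neither plate nor replicate terms) to 341 (without replicate 1) with CID661578, where 25 were called, and from 957 to 3558 with cercosporamide, where 3422 were.

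Values that passed no test also changed sign under some alternatives. After removal of GC trends, TE with CID661578 was -0.28 for *AMD1*, 0.37 for *SRM*, -0.12 for *SMS*, 0.025 for *OAZ1*, -0.15 for *OAT* and 0.20 for *SLC3A2*, TE with cercosporamide was -0.51 for *AMD1*, and the difference of the compounds was 0.23 for *AMD1* and 0.18 for *AZIN1*. In the same setting, polysome-associated RNA with CID661578 was -0.23 for *AMD1*, 0.19 for *SRM* and 0.0090 for *OAZ1*, with cercosporamide it was -0.36 for *AMD1* and 0.048 for *SRM*, and total RNA with CID661578 was 0.036 for *SMS*. An analysis of partial variance gave 0.13 for *SLC3A2* with CID661578 and 0.11 for *AZIN1* between the compounds. *SMS* with CID661578 was at -0.0015 without mitochondrial genes in the normalization. *AHCY* with cercosporamide was at -0.025 with DESeq2, -0.025 with its size factors and -0.026 with no filter. Total *AMD1* with cercosporamide was at -0.014 with TMM within fractions, -0.0060 with the filterByExpr filter and -0.018 with no filter.

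With a replicate or the shallow plate left out, TE with CID661578 ranged from -0.40 to 0.57 for *SRM*, from -0.12 to 0.14 for *SMS*, from -0.011 to 0.17 for *OAT* and from -0.34 to 0.13 for *SLC3A2*. With cercosporamide it ranged from -1.23 to 0.066 for *SRM* and from -0.16 to 0.13 for *AHCY*, and between the compounds from -0.19 to 0.024 for *AMD1* and from -0.37 to 0.19 for *AZIN1*. Polysome-associated RNA with CID661578 ranged from -0.018 to 0.28 for *AMD1*, from -0.25 to 0.064 for *SRM* and from -0.091 to 0.017 for *SMS*, and with cercosporamide from -0.13 to 0.36 for *AMD1*. Total RNA with CID661578 ranged from -0.057 to 0.26 for *AMD1*, from -0.50 to 0.27 for *SRM*, from -0.23 to 0.14 for *SMS*, from -0.13 to 0.15 for *OAZ1*, from -0.32 to 0.048 for *OAZ2* and from -0.025 to 0.075 for *SAT1*. With cercosporamide it ranged from -0.27 to 0.36 for *AMD1* and from -0.10 to 0.74 for *SRM*, and DMSO polysome against total RNA ranged from -0.90 to 0.039 for *SRM*.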
